A study of Mus musculus with 6 samples.

Results

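The genes described here are 44 mouse interferon-stimulated genes listed by name. Of these, 43 had at least 1 probe on the array under their current or an older symbol, among 34741 genes in all. Only Ifi205, a DNA-binding HIN-200 family gene, had no probe under its name. The 43 genes were covered by 63 probes, and each gene is given by the probe with the highest mean log2 signal over the 6 arrays. All 43 of these probes were well above background, by the scanner software's own mark, on all 6 arrays, so no gene entered a comparison only through the array on which it was high.

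The study compared C57BL/6 mice that were either wild type (WT, TIARP+/+) or deficient (KO, TIARP-/-) for TIARP, the product of Steap4, a membrane metalloreductase known to be induced by TNF. From each genotype there was 1 single-colour array of peritoneal macrophages collected 3 days after thioglycollate, 1 array of such macrophages given TNFα for 24 h, and 1 array of Ly6G+ neutrophils taken from spleen by magnetic sorting. The labels number the mice of every sample 1 to 3. Not given in the sources used here are whether their RNA was pooled, which part of Steap4 was deleted and how old the mice were. A duration is stated for the TNF arrays only, so TNF and time in culture cannot be told apart. With 1 array per group there was no replicate and no test within a condition, no p-value is given, and a gene is called higher or lower where the log2 difference was at least 1 in size (2-fold) with the probe well above background on the brighter array.

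Type I interferons bind a receptor made of IFNAR1 and IFNAR2, and signalling through this receptor leads to a transcription factor complex with STAT2 and IRF9 that binds the interferon-stimulated response element (ISRE) in target promoters. Interferon-gamma acts through its own receptor and the GAS element. The induced proteins block viral entry, translation and replication, sense foreign nucleic acid, or feed back on the pathway itself, and macrophages are known to keep a low tonic level of this programme that TNF can raise through autocrine interferon-beta.

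The promoters of the list carried that element more often than promoters at large. RefSeq promoter windows (GRCm38.p6, 250 bases before to 50 bases after each start) were at hand for 31 of the 43 genes. The ISRE core, searched on both strands as GAAA, any 2 bases and GAAA again, was found in 17 of the 31 genes (54.8%), against 3.99% of 27025 genes with a window. The GAS motif, TTC and GAA with any 3 bases between them, was found in 9 of the 31 (29.0%), against 9.55% of all genes. Both motifs were found in 5 genes, and in Bst2 and Ifitm3 a match of one overlapped a match of the other. The stretches below are shown because they hold ISRE matches of 4 antiviral genes whose values are given further on. Each is 60 bases, 5′ to 3′ on the gene's strand, and capitals mark the ISRE match or its reverse complement.

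Isg15, chr4:156200850-156200909, minus strand, 3 overlapping matches: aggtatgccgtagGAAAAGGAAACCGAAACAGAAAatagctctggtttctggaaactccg

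Ifit3, chr19:34583382-34583441, plus strand, 1 of the 2 matches in its window: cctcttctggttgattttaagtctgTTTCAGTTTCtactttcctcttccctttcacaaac

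Ifit1, chr19:34640779-34640838, plus strand, 2 matches: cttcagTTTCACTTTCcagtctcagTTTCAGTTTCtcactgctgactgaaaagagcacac

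Rsad2, chr12:26456538-26456597, minus strand: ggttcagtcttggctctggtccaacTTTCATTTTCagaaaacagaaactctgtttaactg

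All 4 stretches lie before the start of transcription. In TNF-treated macrophages the 17 genes with an ISRE match had a median log2 difference, KO minus WT, of 0.63, and the 14 genes with a window and no match also had 0.63. Without TNF the medians were 0.23 with and 0.36 without a match, and in neutrophils -0.09 and 0.17. The largest difference of the list belonged to Ifi44, which had no match in its window.

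Signals below are the scanner software's processed signal in linear units. Differences are on the log2 scale after each array's 75th percentile signal was subtracted, which was 489.8 (WT) and 409.5 (KO) for macrophages, 432 and 338 for those given TNF, and 231 and 224 for neutrophils. Scaling instead to the spike-in RNAs shifts every gene by the same amount, by -0.54 and -0.79 for KO minus WT in macrophages without and with TNF, by -0.41 in neutrophils, by -0.05 and -0.30 for the TNF differences in WT and KO, and by -1.58 for WT neutrophils against WT macrophages. A gene's distance from the median of all genes is the same under both. The signal error column of the files puts the technical error of a single log2 difference at 0.20 to 0.30 for the 43 probes. The spread between mice is not known from 1 array per group. The Steap4 probe gave 174.8 and 83.1 in WT and KO macrophages, 49.2 and 12.8 (not above background) with TNF, and 48.8 and 36.0 in neutrophils. It was thus lower on each KO array, though still above background on 2 of the 3. In WT macrophages this probe was lower with TNF than without.

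**Figure D1:**
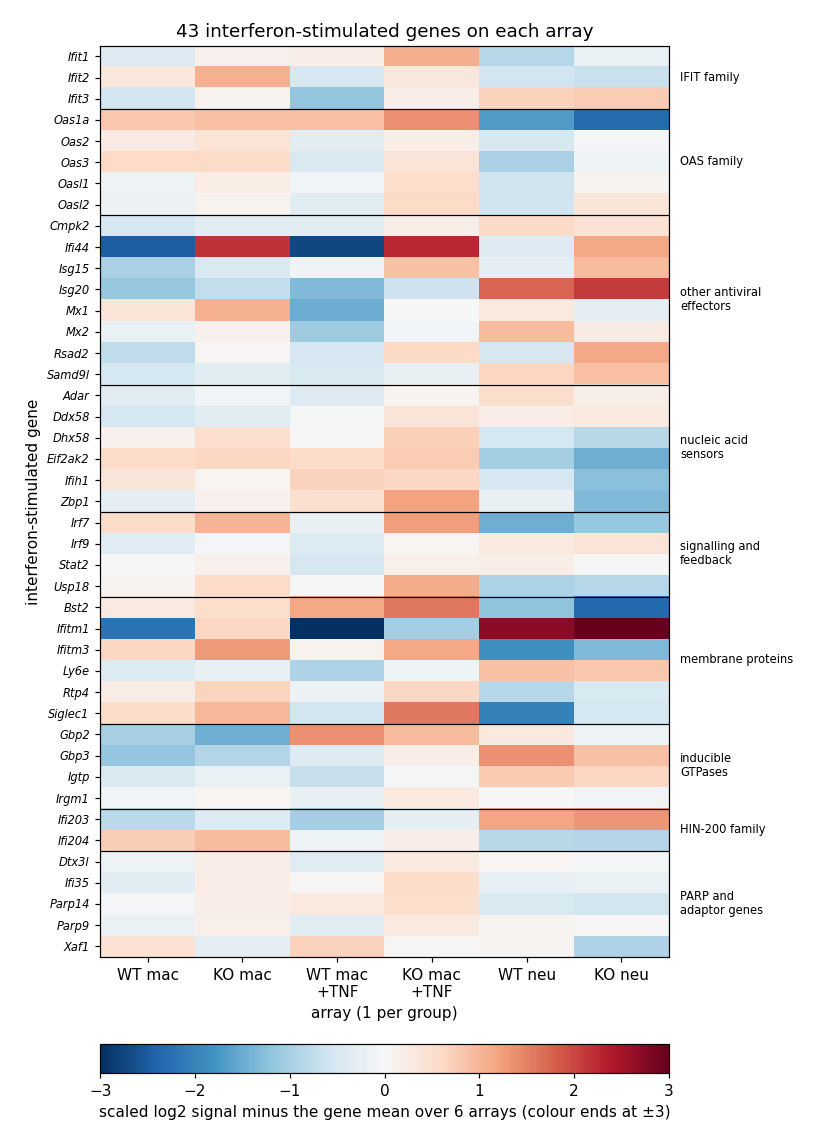
Scaled log2 signal of the 43 genes on each of the 6 arrays, centred on each gene's own mean, with genes grouped by role; red is above and blue below that mean, and colour ends at ±3. Of the 43 genes, 18 have their highest value on the array of TNF-treated KO macrophages and none has its lowest there, whereas 15 are lowest on the array of TNF-treated WT macrophages; these counts use the 75th percentile scaling, and with spike-in scaling the TNF-treated KO array is highest for 5 genes and lowest for 2.

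In macrophages without TNF the list lay slightly higher on the KO array, and Ifi44 and Ifitm1 stood far above the rest. Of the 43 genes, 39 had a difference above 0 and above the median of all genes, but only 8 were above 0 with spike-in scaling. Their median was 0.31, against 0.07 over 24655 genes tested, of which 61.25% were above 0. Past 2-fold, 2 genes were higher (4.65% of the list; 4.08% of all genes were called higher) and 0 were lower (1.55% of all genes), so the share of calls was near that of all genes.

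Ifi44, an interferon-induced protein that restricts several RNA viruses, had signals of 25.5 in WT and 535 in KO macrophages, 18.9 and 468 with TNF, and 50.8 and 145 on the neutrophil arrays. Each KO array was above every WT array. The scaled difference was 4.65 without TNF, 4.99 with TNF and 1.56 in neutrophils, and the gene ranked 6, 11 and 262 from the top of all genes tested in the 3 comparisons. Its scaled level in KO macrophages (log2 0.39) was also above that of both neutrophil arrays (-2.19 and -0.63). Its probe lies on mm9 at chr3:151394035-151394094 on the minus strand and was the only Ifi44 probe; the opening 30 bases of the probe are given because a single oligonucleotide carries the largest difference of the list.

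Ifi44 probe, bases 1 to 30: atgaattcattaagagagtagtgagagaac

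Ifitm1, a membrane protein that hinders the fusion of enveloped viruses, had signals of 569.6 in WT and 3406 in KO macrophages, 139.6 and 894.6 with TNF, and 8195 and 18770 on the neutrophil arrays. The differences were 2.84, 3.03 and 1.24. A second probe for Ifitm1 gave 2.89, 3.07 and 1.26. Unlike Ifi44, Ifitm1 was highest in neutrophils, where its scaled level on the WT array was 4.93 above that of WT macrophages.

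Some mature neutrophil markers were also higher on the KO macrophage arrays, and others were not. Of 8 such markers, 5 were called higher without TNF (Ly6g, S100a8, S100a9, Cxcr2 and Mmp9) and 4 with TNF. Not called without TNF were Csf3r (0.12), Retnlg (0.47) and Mmp8 (0.20). With TNF Csf3r was at 0.34, while Mmp9 (-0.58), Retnlg (-0.33) and Mmp8 (-0.74) were below 0. The summed scaled signal of the 8 markers was 172.9 and 449.5 on the WT and KO arrays, 236.9 and 491.8 with TNF, and 2174 and 2596 on the neutrophil arrays. B cell markers were called higher for 4 and 5 of the 6 tested, with sums of 6.71 and 19.8 without and 4.83 and 14.4 with TNF, 3 of 6 T cell markers tested were called higher in both (Cd3d, Cd3g and Cd247, sums of 15.6 and 17.6 without and 14.0 and 17.0 with TNF), as were 2 of 3 monocyte markers, and 3 and 2 of 6 mesothelial or fibroblast markers were lower. All 8 macrophage markers were above background on every array, and of these Fcgr1 was called higher in KO with TNF (2.14). Their part in the differences was not tested. Leaving out the 11 genes at least 2-fold higher in WT neutrophils than in TNF-treated WT macrophages left a median of 0.28 over 32 genes without TNF. Ifi44 and Ifitm1, the only genes called there, were among the 11, so no call could remain.

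In TNF-treated macrophages the KO array was higher than the WT array across most of the list. Of the 43 genes, 40 were above 0 and above the median of all genes, although with spike-in scaling 16 were above 0. Their median was 0.66, against 0.07 over 23907 genes, of which 57.6% were above 0. Past 2-fold, 9 genes were higher (20.9% of the list against 6.92% of all genes) and 0 were lower (2.67% of all genes); with spike-in scaling 3 were higher, Ifi44, Ifitm1 and Siglec1. Leaving out the 12 genes that were at least 2-fold higher in WT neutrophils than in WT macrophages without TNF left 6 called higher and a median of 0.66 over 31 genes.

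**Figure D2:**
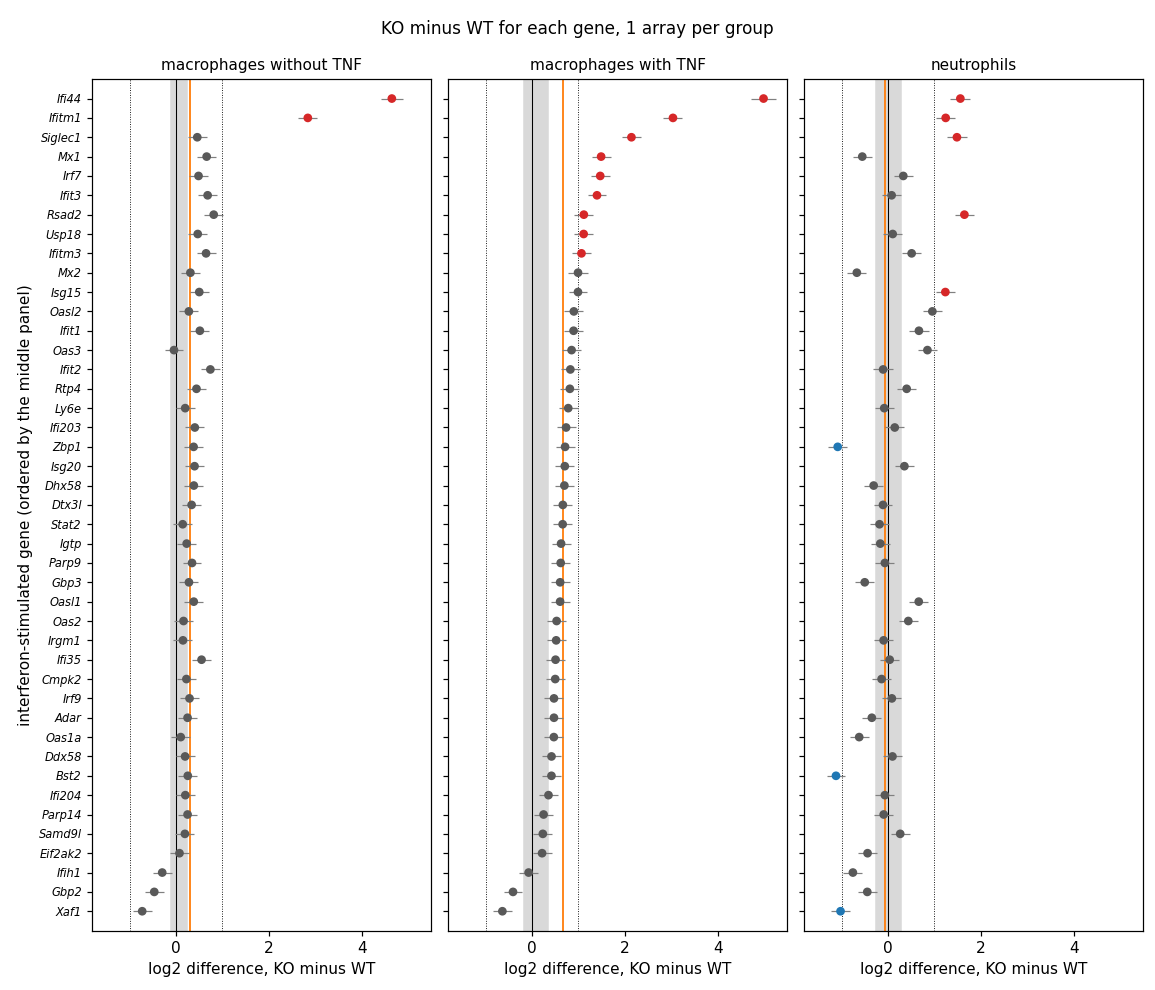
Log2 difference, KO minus WT, of each of the 43 genes in the 3 conditions, ordered by the middle panel; bars are the technical error from the files, the grey band holds the middle 50% of all genes tested, the orange line is the median of the 43 genes, dotted lines mark 2-fold, and red and blue points are called higher and lower. The medians are 0.31, 0.66 and -0.07 with 75th percentile scaling, and spike-in scaling shifts every point of a panel by -0.54, -0.79 and -0.41, which turns the first and the second median below 0.

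The 3 IFIT genes, whose proteins bind viral RNA with unusual 5′ ends, were all above 0 in KO minus WT macrophages in both states, with medians of 0.68 without and 0.90 with TNF; with spike-in scaling 2 of 3 and then 3 of 3 stayed above 0. None passed the rule without TNF and only Ifit3 did with TNF. Ifit1 had signals of 396.3 and 473.3 in WT and KO macrophages, 523.8 and 761.5 with TNF, and 133.9 and 205.7 in neutrophils, and its differences were 0.51, 0.90 and 0.67. Ifit3 stood apart from it in the TNF arrays. The Ifit3 signals were 711.7 and 953.9 in WT and KO macrophages, 408.5 and 842.1 with TNF, and 802.2 and 819.6 in neutrophils, and its differences were 0.68, 1.40 and 0.08. The 2 KO macrophage arrays were thus above both WT macrophage arrays, and the neutrophil arrays were alike within the technical error.

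The 5 OAS genes, which encode enzymes or enzyme-like proteins that answer to double-stranded RNA, had a median of 0.16 without and 0.60 with TNF, which became -0.37 and -0.18 with spike-in scaling, and none of them passed the rule. Among the 8 other antiviral effectors the medians were 0.45 and 0.99, which became -0.08 and 0.20 with spike-in scaling. Mx1, a dynamin-like GTPase of which C57BL/6 mice are known to carry an inactive allele, had signals of 738.7 and 975.7 in the absence of TNF, 177.6 and 389.5 in its presence, and 322.5 and 212.7 in neutrophils. Its difference was 0.66 and then 1.49 in macrophages, and -0.55 in neutrophils. Rsad2 (viperin), which makes a chain-terminating nucleotide, had signals of 1222 and 1794 in the absence of TNF, 1288 and 2182 in its presence, and 694.5 and 2102 in neutrophils. It was higher on every KO array, by 0.81, 1.12 and 1.65.

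Isg15, the ubiquitin-like modifier whose promoter holds 3 ISRE matches, had signals of 6821 and 8072 in the absence of TNF, 10900 and 16920 in its presence, and 5183 and 11810 in neutrophils. Its differences were 0.50, 0.99 and 1.24, so that it fell just short of the rule with TNF and passed in neutrophils; its second probe gave 0.59, 0.98 and 1.24. Mx2 also fell just short with TNF (0.99), whereas Ifitm3, Usp18 and Rsad2 passed by less than the technical error of 0.20.

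All 4 signalling and feedback genes were above 0 in KO minus WT macrophages, with medians of 0.38 and 0.89; with spike-in scaling 0 of 4 and then 2 of 4 were, with medians of -0.16 and 0.10. None passed the rule without TNF, where Stat2, a part of the ISRE-binding complex, was within the technical error (0.14), and Irf7 and Usp18 passed with TNF. Irf7, the transcription factor that amplifies interferon-alpha production, had signals of 3293 and 3854 in the absence of TNF, 1720 and 3721 in its presence, and 384.8 and 468.1 in neutrophils, which gave 0.48, 1.47 and 0.33. The low value was that of TNF-treated WT macrophages; the other 3 macrophage arrays lay between 3293 and 3854. Usp18, a protease that removes ISG15 and damps the type I receptor, had signals of 1605 and 1855 in the absence of TNF, 1324 and 2237 in its presence, and 362.1 and 376.0 in neutrophils, which gave 0.47, 1.11 and 0.10.

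The 6 membrane proteins had medians of 0.45 and 0.94 (-0.09 and 0.15 with spike-in scaling). Siglec1 (sialoadhesin, CD169), a sialic acid receptor of macrophages, had signals of 1182 and 1358 in the absence of TNF, 483.0 and 1665 in its presence, and 94.3 and 255 in neutrophils. Its differences were 0.46, 2.14 and 1.48. A second, much dimmer Siglec1 probe gave -0.21 without TNF and 1.28 with TNF and was not above background in neutrophils, so only the difference with TNF was shared by both probes. Ifitm3, which blocks virus entry from endosomes, was measured by 10 spots per array. Its signals were 32930 and 43110 in the absence of TNF, 20080 and 32830 in its presence, and 2824 and 3891 in neutrophils. The mean difference over the 10 spots was 0.65 ± 0.06, 1.07 ± 0.03 and 0.51 ± 0.05 (SD between spots of the same arrays), so the scatter between spots was far smaller than the difference. That scatter covers neither the choice of scaling nor the spread between mice. With spike-in scaling Ifitm3 did not pass the rule with TNF.

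In the remaining groups no gene passed the rule in macrophages. Of 6 nucleic acid sensors 5 were above 0 in both states, with medians of 0.22 and 0.45, of 4 interferon-inducible GTPases 3 were, with 0.19 and 0.56, and both HIN-200 genes were, with 0.30 and 0.54; with spike-in scaling all of these 12 genes were below 0 in both states. Of the 5 PARP and adaptor genes 4 were above 0 in both states, with medians of 0.34 and 0.51; with spike-in scaling 1 and then 0 were. The genes below 0 in TNF-treated macrophages were Ifih1 (MDA5, a sensor of long double-stranded RNA; -0.07), Gbp2 (a guanylate-binding protein that acts on intracellular pathogens; -0.41) and Xaf1 (XIAP-associated factor 1, a pro-apoptotic protein; -0.64). The same 3 genes and Oas3 (-0.04) were below 0 without TNF.

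In neutrophils the list did not lie to either side. Of the 43 genes, 21 were above 0 (11 with spike-in scaling), and the median was -0.07, against -0.01 over 23971 genes, of which 48.6% were above 0. Past 2-fold, 5 genes were higher, Isg15, Rsad2, Ifi44, Ifitm1 and Siglec1 (11.6% of the list; 3.65% of all genes), and 3 were lower, Bst2, Zbp1 and Xaf1 (6.98%; 4.73% of all genes). Xaf1 is counted here by its brightest probe, which its second probe contradicts; without it 2 genes were lower. With spike-in scaling 3 were higher and 6 lower.

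Of the 5 OAS genes 4 were above 0 in neutrophils, under both scalings, with a median of 0.66 (0.25 with spike-in scaling), and none passed the rule. Of 6 nucleic acid sensors 5 were below 0, of which Zbp1 passed, and all 4 GTPases were below 0, of which none passed and Irgm1 and Igtp were within the technical error; with spike-in scaling all 6 and all 4 were below 0, with medians of -0.39 and -0.31 (-0.81 and -0.72). Bst2 (tetherin), which holds budding virions at the cell surface, had signals of 12210 and 12180 in the absence of TNF, 19830 and 20730 in its presence, and 2041 and 909.3 in neutrophils, which gave 0.25, 0.42 and -1.12. Zbp1, a sensor of Z-form nucleic acid that can trigger necroptosis, had signals of 2959 and 3217 in the absence of TNF, 4380 and 5606 in its presence, and 1421 and 649.1 in neutrophils, which gave 0.38, 0.71 and -1.08; with the median over its 2 probes the neutrophil difference was -0.81. In macrophages neither gene passed the rule by its brightest probe, though the second Zbp1 probe did with TNF (1.115). For the brightest probes the sign turned with spike-in scaling, to -0.28 and -0.37 for Bst2 and -0.16 and -0.08 for Zbp1 without and with TNF.

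Markers of other cells also differed between the neutrophil arrays. Of 8 macrophage markers 6 were called lower on the KO neutrophil array (summed scaled signal 406.0 in WT and 215.4 in KO), as were 4 of 5 plasma cell markers (752.3 and 270.0), and 3 of 4 eosinophil markers tested (50.6 and 18.9; Siglecf was called higher), while all 4 erythroid markers were called higher (1.85 and 7.67), as were Cxcr2 and Mmp8 of 8 mature neutrophil markers. B cell markers summed to 550.2 and 515.5 and pDC (plasmacytoid dendritic cell) markers to 366.6 and 410.0, with 0 of 7 and 0 of 6 called. The part of these cells in the neutrophil differences was not tested. In such bulk samples fewer cells of a type and less RNA per cell cannot be told apart. Siglec1 is itself known as a marker of splenic macrophages. Of 5 markers of red pulp or marginal zone macrophages, Cd209b was called higher on the KO array (at least 2.03-fold), Spic (-1.29) and Cd5l (-2.72) were called lower, and Marco was at 0.35; their sum was 310.8 in WT and 146.7 in KO.

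Across the 3 comparisons of KO and WT, Ifi44 and Ifitm1 were the members called higher each time, among 89 of 21817 genes tested in all 3 (0.408%). No member was called lower each time, among 40 genes. In neutrophils Ifitm1 did not pass the rule with spike-in scaling, and Ifi44 did not with normexp background correction. The signals of Ifi44, Ifitm1, Siglec1 and Rsad2 are plotted beside both Xaf1 probes, which disagreed with each other.

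**Figure D3:**
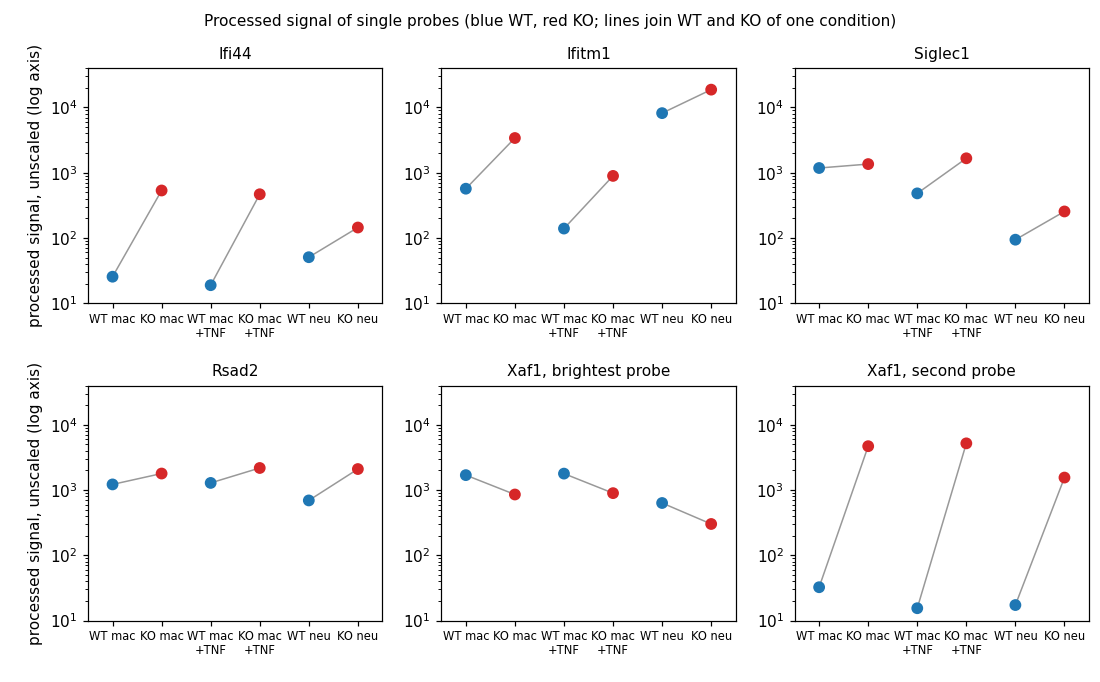
Processed signal, before scaling and on a log axis, of single probes on the 6 arrays; blue is WT, red is KO, and lines join the WT and KO array of a condition. Without and with TNF, Ifi44 reads 25.5 and 18.9 in WT against 535 and 468 in KO macrophages, the second Xaf1 probe 32.5 and 15.5 against 4708 and 5203, and the brightest Xaf1 probe 1696 and 1789 against 856.2 and 898.2.

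The brightest Xaf1 probe, at mm9 chr11:72122169-72122228, had signals of 1696 and 856.2 in WT and KO macrophages, 1789 and 898.2 with TNF, and 634.3 and 302.5 in neutrophils. It was lower on each KO array, by -0.73, -0.64 and -1.02. The second probe, at mm9 chr11:72127175-72127234 on the same strand, had signals of 32.5 and 4708, 15.5 and 5203, and 17.3 and 1556. It was higher on each KO array, by 7.44, 8.75 and 6.54, which is 173-fold, 430-fold and 92.8-fold after scaling. Of 27458 probes that were above background on all 6 arrays, this was the only probe at least 32-fold higher in KO in all 3 comparisons. The opening 30 bases of each probe are given because the direction of Xaf1 depends on which is read.

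Xaf1 brightest probe, bases 1 to 30: ccttcaacccttgcatttatggactctgga

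Xaf1 second probe, bases 1 to 30: tctgtatttctggaccacagtcactcattt

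No direction is therefore given for Xaf1 as a gene. Of 5163 genes with at least 2 probes above background on all 6 arrays, 5 had a probe at least 2-fold higher and another lower in KO in all 3 comparisons. For the other members the probes agreed better: of 20 further probes 17 went the same way as the brightest without TNF (not Cmpk2, Siglec1 and Xaf1), 19 of 20 with TNF (not Xaf1) and 16 of 18 in neutrophils (not Ddx58 and Xaf1).

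The response to TNF itself was small over the list and differed in sign between the genotypes. In WT macrophages 17 of 43 genes were above 0 with TNF and the median was -0.12 (0.02 over 24626 genes, 52.05% above 0). With spike-in scaling 16 were above 0 and the median of the list was -0.175. Past 2-fold, 1 gene was higher, Gbp2 (4.4% of all genes), and 4 were lower, Mx1, Oas3, Ifitm1 and Siglec1 (4.59% of all genes). In KO macrophages 34 of 43 were above 0, which was 18 of 43 with spike-in scaling, and the median was 0.18 (0.04 over 24049 genes; -0.13 for the list with spike-in scaling). There 5 were higher, Isg15, Bst2, Gbp2, Gbp3 and Zbp1 (4.43% of all genes), and 2 were lower, Mx1 and Ifitm1 (3.71%).

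Gbp2 had the largest TNF difference of the list in both genotypes, 2.37 in WT and 2.43 in KO. Its signals were 1118 and 5085 in WT macrophages without and with TNF, 675.8 and 2993 in KO macrophages, and 1304 and 927.1 in WT and KO neutrophils. Both TNF arrays were above all others, and the WT array was above the KO array in each condition. Mx1 differed by -1.88 in WT and -1.05 in KO, and Ifitm1 by -1.85 and -1.65, so these 2 genes were lower with TNF in both genotypes. The same arrays enter the genotype and the TNF comparisons, so their values are not independent of each other.

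**Figure D4:**
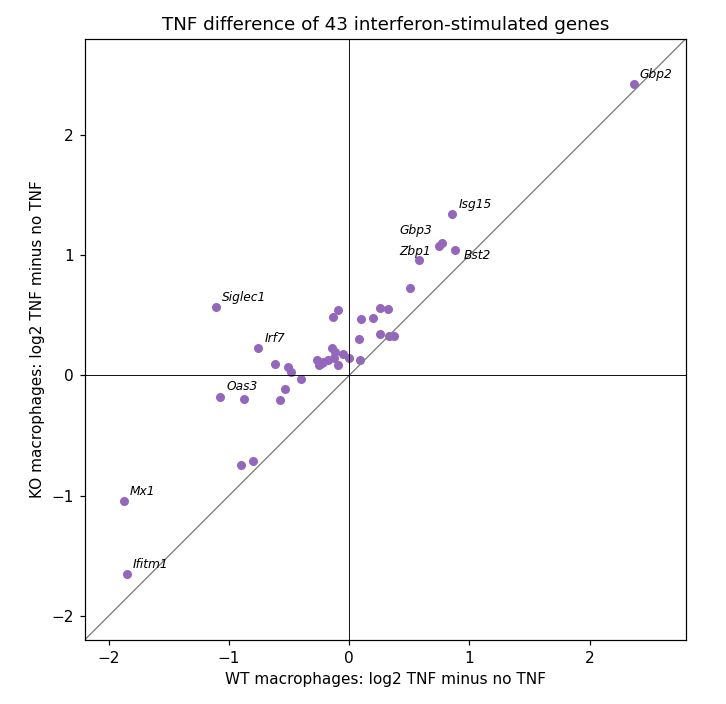
Log2 difference, TNF minus no TNF, of the 43 genes in WT macrophages (horizontal) and KO macrophages (vertical); the diagonal marks equal differences, and genes past 2-fold on an axis, and Irf7, are named. With 75th percentile scaling 41 of 43 genes lie above the diagonal, by a median of 0.33, and with spike-in scaling 28 do, by 0.076.

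The TNF difference was larger, or less negative, in KO than in WT macrophages for 41 of the 43 genes, and for 28 with spike-in scaling. The median of this difference between differences was 0.33 (0.076 with spike-in scaling), against -0.02 over 21739 genes above background on all 4 macrophage arrays, of which 46.8% were above 0. With both scalings 42 of the 43 genes were above the median of all genes. Past 2-fold there was 1 gene, Siglec1, at 1.68 (2.33% of the list against 1.5% of all genes), and none below (0.621% of all genes). Its TNF difference was -1.11 in WT and 0.57 in KO. Irf7 followed at 0.98, with -0.76 in WT and 0.23 in KO, and Oas3 at 0.89, with -1.07 and -0.18. Oas3, a sensor of long double-stranded RNA, had signals of 651.2 and 528.6 in WT and KO macrophages, 273.5 and 385.7 with TNF, and 103.2 and 180.0 in neutrophils. As with Irf7, the array of TNF-treated WT macrophages was the lowest of the macrophage arrays.

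Between cell types the list went both ways, as all genes did. On the WT neutrophil array 12 genes were at least 2-fold higher than in WT macrophages not given TNF (27.9% of the list, 25.9% of all genes). Lower were 10 (23.3% of the list, 17.6% of all genes). The median was 0.09, against 0.22 over 25567 genes. With spike-in scaling 2 were higher and 27 lower. Ifitm1 (4.93) was the highest in neutrophils under both scalings. Isg20, an exonuclease that degrades single-stranded RNA, was next (2.89), with signals of 1025 and 1130 in WT and KO macrophages, 799.0 and 1018 with TNF, and 3583 and 4430 in neutrophils. Siglec1 (-2.57), Oas1a (-2.50) and Ifitm3 (-2.46) were the lowest. The WT neutrophil array also carried more signal of other cells than the WT macrophage array. B cell markers summed to 550.2 against 6.71, and plasma cell markers to 752.3 against 74.1. The part of such cells in these levels was not tested.

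By the mean of the centred log2 levels of the 43 genes, the arrays ordered from TNF-treated WT macrophages (-0.34) through WT macrophages (-0.22), WT neutrophils (-0.13), KO neutrophils (-0.03) and KO macrophages (0.23) to TNF-treated KO macrophages (0.49). With spike-in scaling the order changes: both neutrophil arrays become the lowest (-0.88 for WT and -1.19 for KO) and WT macrophages the highest (0.62), with TNF-treated KO macrophages at 0.48 and TNF-treated WT macrophages at 0.44. The genes outside the list whose levels followed this mean most closely over the 6 arrays were Nwd2 (Pearson r = 0.99), Vmn1r216 (0.99), a lincRNA probe region with no gene symbol (0.99), Olfr259 (0.99) and Paip1 (0.98), and with so few arrays such values are a description only.

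Calls among other genes of the pathway were few, and their main direction changed with the scaling. Of 78 further genes on a list of ligands, receptors, signalling genes and induced genes, 77 were on the array, and 4 of 72 tested were called higher in KO macrophages without TNF (5.56%, against 4.08% of all genes), 7 of 73 with TNF (9.59%, against 6.92%) and 5 of 73 in neutrophils (6.85%, against 3.65%). Called lower were 0, 0 and 3 (4.11% in neutrophils), against 1.55%, 2.67% and 4.73% of all genes. With spike-in scaling 2, 2 and 2 were called higher and 3, 5 and 7 lower. Above 0 were 58, 58 and 32 of them, or 10, 15 and 12 with spike-in scaling. Among the interferons, Ifna1, Ifna2 and Ifnl3 were above background on all 6 arrays. None of these was called in a KO minus WT comparison before the spike-in shift. Ifna1 ranged from 80.5 to 206 and Ifnl3 from 276 to 519 in signal. Ifna2 had signals of 82.4 and 35.3 in WT and KO macrophages without TNF, a difference of -0.964. Ifna2 thus fell just short of the rule there, and passed it as lower with the spike-in shift of -0.535. With TNF and in neutrophils its differences were -0.071 and -0.062. Ifnb1, Ifna4 and Ifng were not above background on any macrophage array, and Ifng, the type II interferon, was at least 2.57-fold lower in KO than in WT neutrophils, a bound set by the probe's own signal on the KO array, where it was not above background. Before the spike-in shift, no KO minus WT comparison called any of the 12 upstream sensors and adaptors. The same held for the 9 kinases and factors. In TNF-treated macrophages Irf5 (-0.406) and Mavs (-0.218) were below 0 in KO minus WT. With the spike-in shift of -0.788 for that comparison, both passed the rule as lower.

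Ifnlr1, a chain of the receptor for type III interferons, was called higher in all 3, by 1.04, 1.24 and 1.03, though not with spike-in scaling (0.50, 0.45 and 0.62). Its signals were 25.1 and 43.1 in WT and KO macrophages, 45.8 and 84.3 with TNF, and 239 and 472 in neutrophils, and its scaled level was 4.33 higher in WT neutrophils than in WT macrophages. The part of the neutrophil markers in its macrophage differences was not tested. Socs3, a feedback inhibitor of cytokine receptors, stood at 1.21, 0.94 and 1.12, past the rule without TNF and in neutrophils, and at 0.67 and 0.71 there with spike-in scaling. Slfn4, a myeloid schlafen gene, was called higher in all 3 as well, by 1.62, 1.61 and 1.67 (1.09, 0.82 and 1.26 with spike-in scaling). Tgtp1, a T cell-specific GTPase by name, completed the genes called without TNF, at 1.97 (1.44 with spike-in scaling).

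In neutrophils Slfn8 (1.45) and Ifitm2 (1.04), a neighbour of Ifitm1 in the same family, were also called higher, and Cxcl9 (-1.19) and Tgtp2 (-1.76) were called lower along with Ifng. In TNF-treated KO macrophages the further induced genes called higher were Ifi27l2a (1.41), Gbp4 (1.03), Gbp6 (1.15), Tgtp1 (1.80), Slfn1 (2.38) and Slfn4; with spike-in scaling Tgtp1 (1.01) and Slfn1 (1.59) remained past the rule. On the TNF arrays Cxcl10, an interferon- and TNF-induced chemokine, was higher in both genotypes, by 2.71 in WT and 2.22 in KO. Socs1, an inhibitor of JAK kinases, was higher by 1.60 and 1.68. Also called higher with TNF in both were Ifnlr1, Jak2 (a receptor-bound kinase), Gbp4, Psme2 (a proteasome activator subunit) and Cd274 (PD-L1), while Gbp7 was called in WT, Cxcl9 in KO, and Ifi27l2a was lower in WT (-1.39). Ifi27l2a (1.07) and Slfn1 (1.39) were the 2 called for the difference between TNF differences. In contrast to most of the list, Cxcl10 was lower on the KO array with TNF, by -0.62, with signals of 4407 in WT and 2240 in KO.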

How the data were processed

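Gene expression was measured by 6 single-colour (Cy3) Agilent arrays, 1 per group. Per the file headers, the authors used Agilent Feature Extraction 10.7.3.1 on the scans, and the deposited values are linear spot intensities after background subtraction and detrending, with no normalization between arrays. The 6 arrays shared 1 slide and 1 scan run, so no batch could be compared. Per the file headers, probe coordinates are on mm9.

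From these, spots marked as outliers (101 to 121 gene spots per array) were dropped, spots of a probe were averaged, and log2 intensity minus each array's 75th percentile over 55681 gene probes was used. Names came from the files and RefSeq (GRCm38.p6). The brightest probe stood for a gene, and the call rule was 2-fold on the brighter array above background. The number of arrays limits the precision. Members and lists were chosen with earlier results of these data known. Every member was eligible to be named, and values in every array are given for those called in a KO minus WT comparison or among the 3 largest of a comparison; pathway genes are named where called between genotypes or with TNF, and markers are given by count with examples. The calling step was tested on simulated data. Python 3.11.15 and limma 3.58.1 (normexp with offset 50, quantile) were used.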

Additional observations from a re-analysis of the deposited data

Results flagged for a closer look

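The median TNF difference of the 43 genes was -0.12 in WT and 0.18 in KO macrophages. These medians lay on opposite sides of 0 with the 75th percentile scaling, and both lay below 0 with spike-in scaling (-0.175 and -0.127). The difference was not tested, since each group had 1 array. Siglec1 had TNF differences of -1.11 in WT and 0.57 in KO. The median KO minus WT difference was 0.66 in TNF-treated macrophages and -0.067 in neutrophils, and this difference between cell types was not tested either.

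The second probe of Xaf1, which is not the probe that stands for the gene, was higher in KO by 7.44 without TNF, 8.75 with TNF and 6.54 in neutrophils, and was above background on all 6 arrays.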

How the results depend on the processing

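No paired analysis was possible because each group has 1 array, so that no 2 groups share more than 1 replicate number; an additive fit of genotype over the 3 conditions could have been made and was not. The alternatives were quantile normalization, normexp background correction, scaling to the median of probes above background on all arrays, scaling to 8 spike-in probes, no filter on dim probes, only probes above background on all 6 arrays, the median across a gene's probes, and leaving out neutrophil-high genes or Ifi44; a choice of probe by mean linear signal and the removal of Ifi44 and Ifitm1 were chosen after seeing the data. Of the 19 calls of members in KO minus WT, all 19 held under quantile normalization and median scaling. Another 17 and 11 are the counts under normexp (not Ifi44 at 0.94 and Xaf1 at -0.92, in neutrophils) and with spike-in scaling. Both other filters on dim probes left all 19 by construction, because all 43 probes were above background on all 6 arrays.

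With spike-in scaling the median became -0.23, -0.12 and -0.48 for KO minus WT in macrophages, TNF-treated macrophages and neutrophils, -0.13 for TNF in KO, 0.076 for the difference between TNF differences and -1.49 for WT neutrophils against WT macrophages. Members called higher and lower became 2 and 2, 3 and 2, and 3 and 6 for the KO minus WT comparisons, 2 and 4 for TNF in KO, and 2 and 27 between cell types, where Ifit3 (-0.33), Mx2 (-0.45), Gbp2 (-0.28), Igtp (-0.37), Cmpk2 (-0.48), Ly6e (-0.29) and Samd9l (-0.40) reversed. For TNF in KO, quantile normalization left 3 called higher and normexp 1 called lower. With the median over all probes 1 was called lower in neutrophils and Xaf1 was 2.76; by linear mean, Xaf1 was 6.54 there and 2 were called higher for the difference between TNF differences. Without neutrophil-high genes, and without Ifi44 and Ifitm1, 0 were called higher in macrophages without TNF, where both removals took out the only genes called. Spike-in scaling is a constant shift per array; the cause of the other changes was not tested. Depth is set by signal over background, and all 43 genes were above it.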
